A study of Mus musculus with 9 samples.

Results

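Small nucleolar RNAs (snoRNAs), the related RNAs of Cajal bodies (scaRNAs) and the spliced non-coding transcripts that carry snoRNAs in their introns were followed across 3 groups of mouse embryonic stem cells. They were taken as the array genes whose symbol begins with Snora, Snord, Scarna or Snhg followed by a digit, with 1 feature per gene, and 59 of the 19938 genes tested met that rule. The members were 31 box C/D snoRNAs (Snord), 20 box H/ACA snoRNAs (Snora), 3 scaRNAs and 5 host transcripts (Snhg). A further 41 features that carry several symbols, at least 1 of them of this kind, were not analysed here.

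Expression was measured on an Affymetrix whole-transcript array from total RNA, with 9 arrays in 3 groups of 3 replicates that the labels call biological. Flox cells, the controls, had 1 β-catenin allele deleted and the other floxed. In null cells deletion covered both alleles. Null Eα cells descend from such null cells by stable transfection and express E-cadherin fused to α-catenin. All 3 groups shared a mixed S129S6-C57BL/6 background and were grown on gelatin in serum with the cytokine LIF, and all were harvested below confluence. Whether those were separate clones or cultures of a single line is not stated in the labels, so the p-values measure only the spread between these arrays, and a difference between groups is a difference of genotype and line together.

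snoRNAs are short nuclear RNAs that guide chemical modification of other RNAs by base pairing. Box C/D snoRNAs direct 2′-O-methylation and box H/ACA snoRNAs direct pseudouridylation, mostly of ribosomal RNA, while scaRNAs do the same for spliceosomal RNAs in Cajal bodies, and a few snoRNAs act in the cleavage of the ribosomal RNA precursor instead. In mammals most of them are released from introns of host genes, many of which encode ribosomal proteins or translation factors, and the Snhg genes are hosts whose spliced product is non-coding and in several cases short-lived.

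Values were log2 RMA signals, and the median over all features was 5.95 to 6.06 on the 9 arrays. Differences are in log2 units, so that 1 unit is a 2-fold change, and are given with limma's standard error (SE). Calls were made in limma where the p-value, adjusted over all 19938 genes by Benjamini-Hochberg, was under 0.05. The deleted gene Ctnnb1 fell by 0.65 ± 0.07 in null and by 0.93 ± 0.07 in null Eα against flox, and its groups did not overlap. A whole-transcript feature over a snoRNA can hybridise to the mature RNA, to its precursor or to an unspliced host intron, and these cannot be told apart here. The silica-column kit named in the labels recovers very short RNAs poorly. Levels of different features were not compared with each other.

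The null arrays disagreed among themselves over these RNAs. Null replicate 1 lay above its group mean in 57 of the 59 members and null replicate 2 in 3 of them, whereas 51.6% and 50.4% of all genes did so on those arrays. The members' median deviation from the group mean was 0.28 on null replicate 1, -0.24 on null replicate 2 and -0.03 on null replicate 3. On the 6 other arrays it lay between -0.04 and 0.05. Null replicate 1 exceeded null replicate 2 in 55 members, by a median of 0.53, with Snora23 farthest apart at 1.07. The median standard deviation (SD) of a member among the null arrays was therefore 0.30, against 0.10 for all genes, while it was 0.08 among flox and 0.11 among null Eα arrays. The 25 enclosing genes that were tested did not share this split, with median deviations of -0.003 and -0.02 on null replicates 1 and 2. No Snhg transcript was among these 25. The 5 Snhg members did show the split, with median deviations of 0.27 and -0.19 on null replicates 1 and 2 and a median SD of 0.30 among the null arrays. The counts of members called in the comparisons that involve null, and for both snoRNA classes against flox, are therefore also given without each of these arrays.

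**Figure D1:**
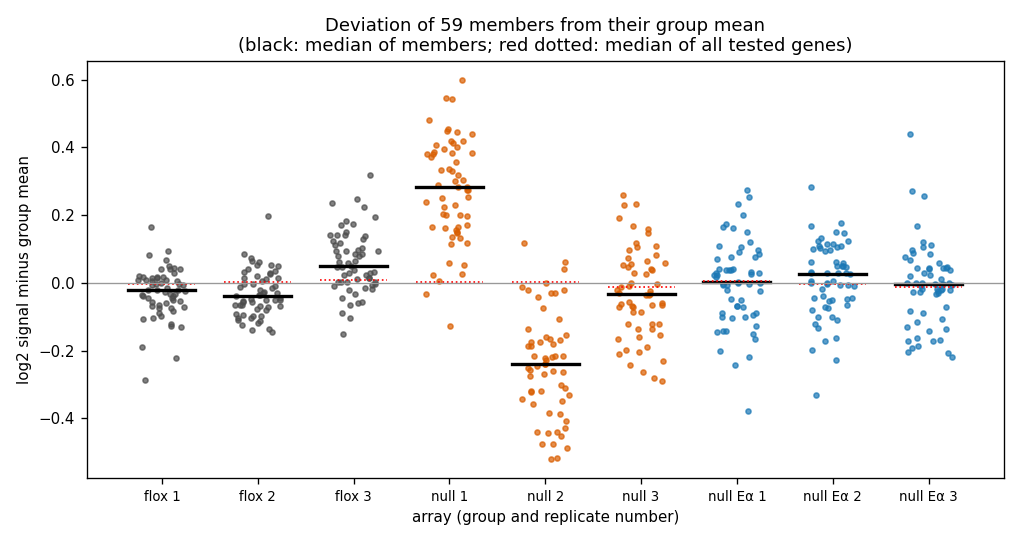
Log2 signal minus the mean of the member's own group (vertical axis) on each of the 9 arrays (horizontal axis), with 1 point per member, a black bar at the members' median and a red dotted line at the median of all tested genes. The points of null replicate 1 sit around a median of 0.28 and those of null replicate 2 around -0.24, while the other arrays centre near 0.

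Against flox, snoRNA features moved in both directions in null cells, and the largest falls exceeded 4-fold. In null cells 16 members rose, 24 fell and 19 were not called, where 26.5% of all genes were called higher and 28.7% lower, so the members called made up 67.8% against 55.2% of all genes. Among the 55 members and 11334 genes above the median signal, the shares called were 67.3% and 70.0%, so the members' total was near that of genes of like brightness. The members' median difference was -0.17, against 0.06 for all genes and -0.13 for the brighter ones. The groups did not overlap for 41 of the 59 members and for 67.4% of all genes. At 2-fold or more, 6 members rose and 12 fell, where 1003 and 2042 of the 19938 genes did. Differences of that size, called or not, were found in 30.5% of members, 15.3% of all genes and 23.2% of the brighter ones. Without null replicate 1 the members' counts were 14 higher and 29 lower, of which 4 and 14 at 2-fold or more. Of all genes 4603 were then called higher and 5545 lower, of which 1016 and 2084 at 2-fold or more. Without that array 48 members (72.8% of all genes) did not overlap. Without null replicate 2 the members' counts were 19 and 23, of which 8 and 11 at 2-fold or more. Those of all genes were 4344 and 5392, of which 988 and 2028. With that array left out, 46 members (71.2% of all genes) did not overlap.

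In null Eα cells 21 members rose, 20 fell and 18 were not called against flox, with 32.1% of all genes called higher and 31.6% lower (63.7% in all). The median difference was 0.11 for the members, 0.07 for all genes and -0.25 for the brighter ones, and 50 members had groups that did not overlap, where 69.5% of all genes did. Of the brighter genes 21.0% were called higher and 49.4% lower, against 34.5% each way of the 55 brighter members. At 2-fold or more, 10 members rose and 7 fell, where 442 and 1944 of the 19938 genes did. Among the 55 brighter members 10 rose and 6 fell by that much, where 366 and 1783 of the 11334 brighter genes did. The comparison shares its flox arrays with the one above, so the values of both are given side by side and their likeness is not read as a result. The arrays' interquartile range narrowed from 3.75 to 3.84 in flox to 3.21 to 3.37 in null Eα, and the split of calls moved with the scaling. Quantile normalization gave 26 higher and 14 lower in null Eα, where it called 4943 and 5262 of the 19938 genes. Centring each array on its brighter genes, which raised the median of all genes to 0.34 in null and 0.49 in null Eα, gave 22 higher and 20 lower in null and 33 higher and 13 lower in null Eα. Centring each chromosome on its brighter genes gave 26 and 19 in null and 35 and 11 in null Eα. Of all 19938 genes, chromosome centring called 11066 higher and 3971 lower in null and 12466 and 3310 in null Eα. Centring arrays on brighter genes called 11855 and 4013 of them in null and 12737 and 3426 in null Eα.

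**Figure D2:**
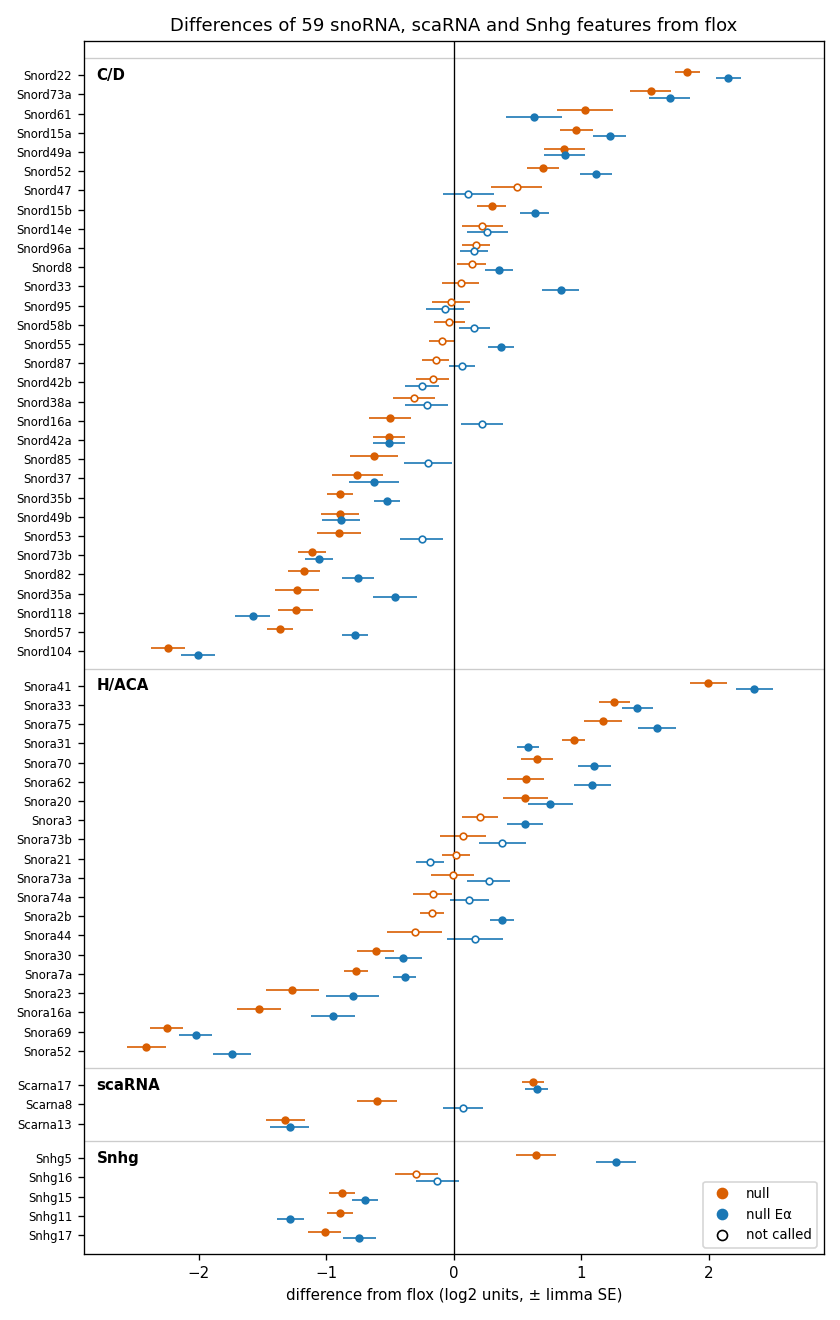
Difference from flox in log2 units (horizontal axis) with limma's SE for each of the 59 members (vertical axis), grouped as C/D, H/ACA, scaRNA and Snhg, for null (orange) and null Eα (blue), with open points where the member was not called. Each of the larger classes spans from falls beyond -2 to rises near 2 or above, and the null Eα point lies to the right of the null point in 49 members.

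The 5 host transcripts did not move together. Snhg5, the host of the box C/D snoRNA U50, rose, while Snhg11 and Snhg15 fell, Snhg17 fell on 1 of its 3 features and Snhg16 was not called. Without null replicate 1 Snhg16 was called lower in null as well. Gas5, a further non-coding host outside the Snhg names, rose as well. The promoters of 4 of these genes are shown, of both hosts that rose and of 2 with a feature that fell, as examples of how host transcripts begin. Each run is 150 bases, from 100 before the start to 50 from it on, from RefSeq (GRCm38.p6), written 5′ to 3′ on the strand of the gene. Capitals mark motifs found by a search of both strands and a run of pyrimidines (C or T) that begins at the start base.
Snhg5, chr9:88522848-88522997, minus strand: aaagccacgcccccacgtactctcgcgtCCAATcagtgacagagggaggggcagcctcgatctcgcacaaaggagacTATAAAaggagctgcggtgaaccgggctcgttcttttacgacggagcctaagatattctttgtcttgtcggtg
Gas5, chr1:161035066-161035215, plus strand: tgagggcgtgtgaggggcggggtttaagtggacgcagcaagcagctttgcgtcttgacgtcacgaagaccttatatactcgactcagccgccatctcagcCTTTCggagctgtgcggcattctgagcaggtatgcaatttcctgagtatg
Snhg15, chr11:6528711-6528860, minus strand: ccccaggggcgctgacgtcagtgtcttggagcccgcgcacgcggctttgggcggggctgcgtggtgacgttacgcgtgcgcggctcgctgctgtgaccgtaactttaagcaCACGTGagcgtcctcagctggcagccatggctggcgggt
Snhg17, chr2:158361460-158361609, minus strand: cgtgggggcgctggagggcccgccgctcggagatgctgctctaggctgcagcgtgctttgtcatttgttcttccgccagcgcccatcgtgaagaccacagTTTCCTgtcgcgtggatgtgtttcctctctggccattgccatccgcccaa

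The Snhg5 window held a CCAAT box and, nearer to the start, the TATA box TATAAA, and the Snhg15 window held the E-box CACGTG just after the start. The motifs were searched in the full window of 300 bases, from 250 before the start to 50 from it on, of which the bases nearest to the start are printed. Of 32851 such promoter windows of 300 bases, 37.4% held CCAAT, 13.6% TATAAA and 7.15% CACGTG. Gas5, as shown, begins with a C followed by 4 pyrimidines, the form of start found in 2.51% of windows and known from genes of the translation machinery, whereas the Snhg17 run begins with T. RefSeq also gives Gas5 and Snhg17 a second start each, with no such run. The TCF/LEF letters CTTTGAA and CTTTGAT, found in 5.14% and 3.73% of windows, were in none of these windows or in those of Snhg11 and Snhg16. None of the motifs was shared by both genes that rose or by both with a feature that fell. A match of letters is a description and not a site.

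Snhg5 measured 9.75, 9.78 and 9.70 on the flox arrays, 10.80, 10.17 and 10.19 on the null arrays and 11.10, 11.11 and 10.83 on the null Eα arrays. The groups did not overlap, and the levels rose from flox through null to null Eα. The rise was 0.64 ± 0.16 in null (limma, adjusted p = 0.0052) and 1.27 ± 0.16 in null Eα (adjusted p = 6.2e-05). Null Eα exceeded null by 0.63 ± 0.16 (adjusted p = 0.012), a call lost without null replicate 3 (adjusted p = 0.052). Gas5 measured 10.55, 10.63 and 10.65 in flox, 11.98 to 12.07 in null and 11.89, 11.89 and 12.10 in null Eα. It lay 1.41 ± 0.08 above flox in null and 1.35 ± 0.08 in null Eα, and the null and null Eα arrays overlapped.

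Snhg15, which hosts an H/ACA snoRNA, measured 8.86, 8.80 and 9.03 in flox, 8.04, 8.06 and 7.96 in null and 7.98, 8.31 and 8.31 in null Eα. Every flox array stood above the 6 others, and it fell by 0.88 ± 0.10 in null and by 0.70 ± 0.10 in null Eα. The fall in null Eα turned to 0.14 where each chromosome was centred on its brighter genes. Snhg17 measured 9.88, 10.06 and 9.99 in flox, 9.24, 8.64 and 9.01 in null and 9.26, 9.23 and 9.21 in null Eα. Its difference was -1.01 ± 0.13 in null and -0.74 ± 0.13 in null Eα. The gene has 2 further features with other signs: they differed from flox by 0.62 and -0.04 in null and by 0.73 and 0.15 in null Eα, so the fall belongs to the brightest feature and not to the gene as a whole. With the 3 features averaged, the difference in null was -0.14 (limma, adjusted p = 0.26).

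Snhg11 lies beside Snhg17 on chromosome 2 and fell further with the fusion. It measured 7.02, 7.11 and 7.11 in flox, 6.06, 6.16 and 6.34 in null and 6.00, 5.73 and 5.67 in null Eα, with no overlap between any of the groups. The differences were -0.89 ± 0.10 and -1.28 ± 0.10 against flox, and -0.39 ± 0.10 between null Eα and null (limma, adjusted p = 0.018). Its other feature moved less, by -0.15 and -0.28 against flox. The call between null Eα and null was lost without null replicate 3 and without null Eα replicate 2. Snhg16 measured 9.13, 9.24 and 9.21 in flox, 9.35, 8.71 and 8.64 in null and 9.09, 9.24 and 8.86 in null Eα, and its differences of -0.29 ± 0.17 and -0.13 ± 0.17 were not called.

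**Figure D3:**
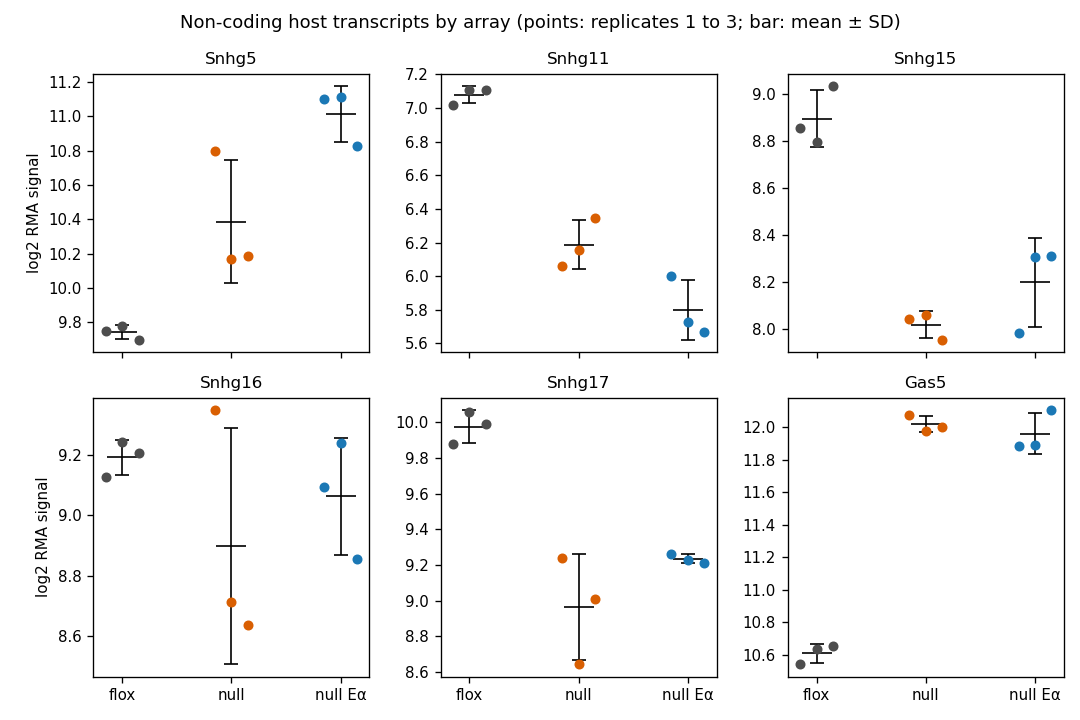
Log2 RMA signal (vertical axes, each with its own range) of the 5 Snhg transcripts and Gas5 on each array (points, replicates 1 to 3 from left to right) by group (horizontal axis), with the mean and SD of the 3 arrays. Snhg5 and Gas5 are higher than flox in both other groups, Snhg11, Snhg15 and the plotted feature of Snhg17 are lower, and the null arrays of Snhg16 spread across the flox values.

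Among the 31 box C/D snoRNAs, 7 rose and 13 fell in null, and 10 rose and 10 fell in null Eα. In null that was 22.6% higher and 41.9% lower, near the 26.9% and 43.1% of the brighter genes. In null Eα it was 32.3% each way, against 21.0% and 49.4% of the brighter genes. The null counts were 6 and 14 without null replicate 1 and 10 and 12 without null replicate 2. The largest rise was that of Snord22 (U22), which acts in the processing of the small-subunit ribosomal RNA and lies in Snhg1. It measured 7.41, 7.40 and 7.55 in flox, 9.45, 9.12 and 9.28 in null and 9.51, 9.64 and 9.67 in null Eα. All 6 arrays without β-catenin lay more than 1 unit above the flox arrays. The rise was 1.83 ± 0.10, or 3.55-fold, in null (limma, adjusted p = 1.2e-07) and 2.15 ± 0.10, or 4.44-fold, in null Eα (adjusted p = 8.5e-08).

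Snord73a, which lies in the ribosomal protein gene Rps3a1, rose next. It measured 5.86, 6.12 and 6.46 in flox, 7.89, 7.46 and 7.72 in null and 7.64, 7.95 and 7.93 in null Eα, with the flox arrays below all others. Its rise was 1.54 ± 0.16 in null and 1.69 ± 0.16 in null Eα. Snord61 (1.03 ± 0.22), Snord15a (0.96 ± 0.13), Snord49a (0.87 ± 0.16), Snord52 (0.70 ± 0.12) and Snord15b (0.30 ± 0.11) were the other C/D snoRNAs called higher in null. On all 3 flox arrays Snord61 lay below the lower quartile of the array's features, where differences on this scale are compressed. In null Eα the same 7 were called, with 0.63 ± 0.22 for Snord61 and 0.63 ± 0.11 for Snord15b, and Snord33 (0.84 ± 0.15), Snord55 (0.37 ± 0.10) and Snord8 (0.35 ± 0.11) were called as well. The null call of Snord15b held in 9 of 18 settings, since its adjusted p of 0.047 sat at the threshold.

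The largest C/D fall was that of Snord104, which measured 11.25, 11.16 and 11.28 in flox, 9.35, 8.83 and 8.80 in null and 9.32, 9.15 and 9.20 in null Eα. The flox arrays stood well apart above the others. It was 4.73-fold lower in null (-2.24 ± 0.13, limma, adjusted p = 2.7e-07) and 4.02-fold lower in null Eα (-2.01 ± 0.13, adjusted p = 8.2e-07). Snord57, in the gene of the snoRNP core protein Nop56, measured 10.80, 10.66 and 10.94 in flox, 9.41, 9.30 and 9.61 in null and 9.98, 9.98 and 10.12 in null Eα. The 3 groups did not overlap, and null Eα lay between the others: the difference from flox was -1.36 ± 0.10 in null and -0.78 ± 0.10 in null Eα.

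Snord118 (U8), which is needed for large-subunit ribosomal RNA processing and is the only small RNA here without an enclosing gene in RefSeq, fell in both groups. It measured 6.20, 6.45 and 6.10 in flox, 5.17, 4.77 and 5.09 in null and 4.80, 4.45 and 4.78 in null Eα. Flox did not overlap with the others, and the differences were -1.24 ± 0.14 in null and -1.57 ± 0.14 in null Eα. The second feature listed for Snord118 held the same value on every array, as did the second features of Scarna17 and Snora30, so such features are no independent measurement. The other C/D falls in null ran from -1.23 ± 0.17 for Snord35a to -0.50 ± 0.16 for Snord16a, and took in Snord82, Snord73b, Snord53, Snord49b, Snord35b, Snord37, Snord85 and Snord42a. In null Eα, Snord53, Snord16a and Snord85 were no longer called against flox, at -0.25 ± 0.17, 0.22 ± 0.16 and -0.20 ± 0.19.

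The C/D snoRNAs that were called in neither comparison with flox were Snord14e (U14, which acts in small-subunit ribosomal RNA processing), Snord38a, Snord42b, Snord47, Snord58b, Snord87, Snord95 and Snord96a. Their differences ran from -0.31 for Snord38a to 0.49 for Snord47 in null and from -0.25 to 0.26 in null Eα. Near-identical copies such as those of Snord14, Snord15, Snord35 and Snord42 may share probes, so the values of single copies are uncertain.

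Among the 20 box H/ACA snoRNAs, 7 rose and 6 fell in null, and 9 rose and 6 fell in null Eα. The null shares were 35% higher and 30% lower, against 26.9% and 43.1% of the brighter genes. The null Eα shares were 45% and 30%, against 21.0% and 49.4% of the brighter genes. The null counts were 6 and 9 without null replicate 1 and again 7 and 6 without null replicate 2. Snora41, which lies in Eef1b2, the gene of a translation elongation factor, had the largest rise of all members. It measured 5.91, 5.75 and 5.92 in flox, 8.24, 7.61 and 7.72 in null and 8.11, 8.32 and 8.21 in null Eα. No array outside flox came near the flox values. The rise was 2.00 ± 0.15, or 3.99-fold, in null (limma, adjusted p = 1.1e-06) and 2.36 ± 0.15, or 5.12-fold, in null Eα (adjusted p = 5.3e-07).

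Snora33, in the ribosomal protein gene Rps12, measured 7.80, 7.74 and 7.84 in flox, 9.37, 8.89 and 8.89 in null and 9.14, 9.33 and 9.23 in null Eα. Snora75, in the nucleolin gene Ncl, measured 7.83, 7.72 and 7.82, then 9.38, 8.74 and 8.76, and then 9.41, 9.38 and 9.37 in the same order. In both, flox lay below all other arrays. Snora33 rose by 1.26 ± 0.12 and 1.44 ± 0.12, and Snora75 by 1.17 ± 0.15 and 1.59 ± 0.15, in null and null Eα. The other 4 called higher in null were Snora31 (0.94 ± 0.09), Snora70 (0.65 ± 0.13), Snora62 (0.56 ± 0.14, which acts in ribosomal RNA processing) and Snora20 (0.56 ± 0.18). In null Eα these 4 rose by 0.58 to 1.10, and Snora3 (0.56 ± 0.14) and Snora2b (0.38 ± 0.09) were called too. The null call of Snora20 was lost where flox replicates 1 or 2, or null replicate 1, were left out.

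Snora52, in the ribosomal protein gene Rplp2, had the largest fall of all members in null and the third largest in null Eα, after Snora69 and Snord104. It measured 11.99 to 12.01 in flox, 9.74, 9.18 and 9.85 in null and 10.37, 10.13 and 10.29 in null Eα. The 3 groups were fully separate, with null lowest. It was 5.31-fold lower in null (-2.41 ± 0.15, limma, adjusted p = 3.8e-07) and 3.33-fold lower in null Eα (-1.74 ± 0.15, adjusted p = 5.2e-06). Snora69, in the X-linked ribosomal protein gene Rpl39, measured 9.60, 9.61 and 9.66 in flox, 7.66, 7.12 and 7.34 in null and 7.75, 7.43 and 7.62 in null Eα. Only flox stood apart here, and the differences were -2.25 ± 0.13 and -2.02 ± 0.13.

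Snora16a, in Snhg12, measured 9.69, 9.61 and 9.91 in flox, 8.59, 7.77 and 8.27 in null and 8.83, 8.78 and 8.76 in null Eα, so that the groups did not overlap. It differed from flox by -1.53 ± 0.17 in null and -0.95 ± 0.17 in null Eα. Snora23 (-1.27 ± 0.21), Snora7a (-0.77 ± 0.09) and Snora30 (-0.61 ± 0.15) were the others that fell in null. They were also called in null Eα, at -0.79 ± 0.21, -0.38 ± 0.09 and -0.40 ± 0.15, but the values of Snora7a and Snora30 turned to 0.03 and 0.02 with arrays centred on brighter genes. Snora73a and Snora73b (both U17, which acts in the cleavage of the ribosomal RNA precursor), Snora74a, Snora44 and Snora21 were called in neither comparison with flox. Their differences lay between -0.31 and 0.07 in null and between -0.18 and 0.38 in null Eα. Snora21 has another feature, not used for the calls, which differed from flox by -0.27 in null and -0.47 in null Eα. That feature measured 9.03, 9.43 and 9.14 in flox and 8.70, 8.72 and 8.76 in null Eα.

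The 3 scaRNAs went different ways. Scarna13, in Snhg10, measured 8.17, 8.30 and 8.60 in flox, 7.06, 7.10 and 6.95 in null and 7.33, 6.74 and 7.15 in null Eα. Flox stood above the others, and the differences were -1.32 ± 0.15 in null and -1.29 ± 0.15 in null Eα. Scarna17 measured 9.58, 9.43 and 9.48 in flox, 10.18, 10.10 and 10.08 in null and 10.08, 10.04 and 10.31 in null Eα, a rise of 0.62 ± 0.09 and 0.65 ± 0.09 with flox below all other arrays. Scarna8 measured 6.56, 6.81 and 6.98 in flox, 6.49, 6.16 and 5.90 in null and 7.02, 6.70 and 6.86 in null Eα. It was lower in null, at -0.60 ± 0.16 against flox (limma, adjusted p = 0.0079), and null Eα overlapped flox, at 0.07 ± 0.16. The fall was not called with each chromosome centred on its brighter genes (-0.22, limma, adjusted p = 0.19) or with arrays so centred (-0.32, adjusted p = 0.069). With chromosomes centred null Eα was called higher than flox, by 0.44.

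Between null Eα and null, 19 members rose and 2 fell, where 13.6% of all genes were called higher and 18.1% lower (31.7% in all). Of the 55 brighter members 32.7% were called higher and 3.6% lower (36.4% in all), against 16.2% and 28.9% (45.1%) of the brighter genes. The members' median was 0.26 against 0.05 for all genes and -0.06 for the brighter ones, and none of the members reached 2-fold. The groups did not overlap for 22 members and for 43.1% of all genes (41 members and 51.4% without null replicate 1, 26 and 51.3% without null replicate 2). The number of members called higher rested on the null arrays. It was 33 without null replicate 1, 12 without null replicate 2 and 11 without null replicate 3. The falls numbered 2, 5 and 1. Of all 19938 genes, 2374, 2128 and 1882 were then called higher and 3211, 3093 and 2907 lower. Fitting only the 2 groups compared gave 11 rises and 1 fall among members, and 2067 and 2902 among all genes. The median difference was 0.41 without null replicate 1 and 0.15 without null replicate 2. Centring arrays or chromosomes on brighter genes gave 33 rises and 1 fall, where 6401 and 5800 of all genes were called higher and 2681 and 2583 lower.

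Snord33 and Snord35a, which lie together in the ribosomal protein gene Rpl13a and belong to a set of snoRNAs known from the cellular response to lipid and oxidative stress, rose most with the fusion. Snord33 measured 8.89, 8.22 and 8.71 in null and 9.39, 9.42 and 9.36 in null Eα, and Snord35a measured 7.81, 6.94 and 7.36 and then 8.14, 8.14 and 8.14. In both, each null Eα array exceeded each null array. The rises were 0.78 ± 0.15 (limma, adjusted p = 0.0026) and 0.77 ± 0.17 (adjusted p = 0.0069). Snord33 kept a difference of 0.92 without null replicate 1 and 0.59 without null replicate 2, and Snord35a one of 0.99 and 0.55. Both were called in each case. From flox, at 8.65, 8.56 and 8.45 for Snord33 and 8.60, 8.66 and 8.55 for Snord35a, the null values differed by 0.06 ± 0.15 and -1.23 ± 0.17.

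Snord16a, in Rpl4, rose by 0.72 ± 0.16 from 9.90, 9.15 and 9.21 in null to 10.16, 10.13 and 10.12 in null Eα. Scarna8 and Snora52 each rose by 0.67, with SE of 0.16 and 0.15. Without null replicate 2 these 3 stood at 0.58, 0.66 and 0.47 and were still called. Snord53 (0.65), Snord57 (0.58), Snora16a (0.58), Snora2b (0.55) and Snora62 (0.52) followed, and the calls of Snora16a and Snora62 were lost without null replicate 2. The falls were Snhg11 and Snora31, the latter from 8.53, 8.39 and 8.33 to 7.99, 8.01 and 8.18, or by 0.36 ± 0.09 (limma, adjusted p = 0.012).

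In several genes the snoRNAs that lie within the same gene changed by different amounts or in opposite directions. By RefSeq's gene spans, 53 of the 54 small RNAs lie within another gene, 43 genes in all, of which 39 members are in protein-coding and 21 in ribosomal protein genes. Strand could not be checked. No gene held 3 members, and 9 genes with 2 members each are described. These 9 pairs were compared on each array as the first minus the second signal, a choice made after the values had been seen. This within-array difference carries no shift common to both, such as the one that set null replicates 1 and 2 apart: its median SD among the null arrays was 0.14, against 0.35 for the single members of these pairs. Each pair difference was tested by a two-sided exact permutation test, whose smallest p with 3 arrays against 3 is 0.1, and the Benjamini-Hochberg adjusted value over the 27 comparisons was then 0.18.

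In Rps3a1, Snord73a minus Snord73b was -3.86, -3.58 and -3.50 on the flox arrays, -0.93, -1.05 and -1.01 on the null arrays and -0.96, -0.84 and -0.89 on the null Eα arrays. Snord73a rose (1.54) and Snord73b fell (-1.11 ± 0.11) in null, and the gap between them changed by 2.65. In Ncl, Snora75 minus Snord82 was -2.01, -2.25 and -2.05 in flox, 0.38, 0.32 and 0.01 in null and 0.37, 0.18 and 0.18 in null Eα, since Snora75 rose (1.17) and Snord82 fell (-1.17 ± 0.13). In the non-coding gene 2410006H16Rik, Snord49a minus Snord49b was -2.18, -2.20 and -2.40 in flox, -0.43, -0.47 and -0.60 in null and -0.58, -0.44 and -0.50 in null Eα. For these 3 pairs each member was called, in opposite directions, in null and in null Eα, and no flox array overlapped with the other groups (exact permutation p = 0.1, adjusted 0.18).

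In Rpl13a, Snord33 minus Snord35a was 0.05, -0.10 and -0.10 in flox, 1.08, 1.28 and 1.35 in null and 1.25, 1.28 and 1.22 in null Eα. In Snhg12, Snora16a minus Snora44 was 1.65, 1.54 and 1.52 in flox, 0.19, 0.38 and 0.47 in null and 0.66, 0.28 and 0.42 in null Eα. In these 2 genes as well flox stood apart. In Rps3, Snord15a minus Snord15b moved from a mean of -1.12 in flox to -0.46 in null and -0.53 in null Eα. The pairs in Rpl23a, Rack1 and Snhg3 moved by -0.34 to -0.08 against flox in both comparisons. Flox did not overlap with null in 7 of the 9 pairs or with null Eα in 8 of them. For the signals of single genes, 67.4% and 69.5% of all genes did not overlap in these comparisons, and 43.1% between null Eα and null. Between null Eα and null the 9 pair differences moved by -0.07 to 0.11, the groups overlapped in all 9 and the smallest exact permutation p was 0.2.

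**Figure D4:**
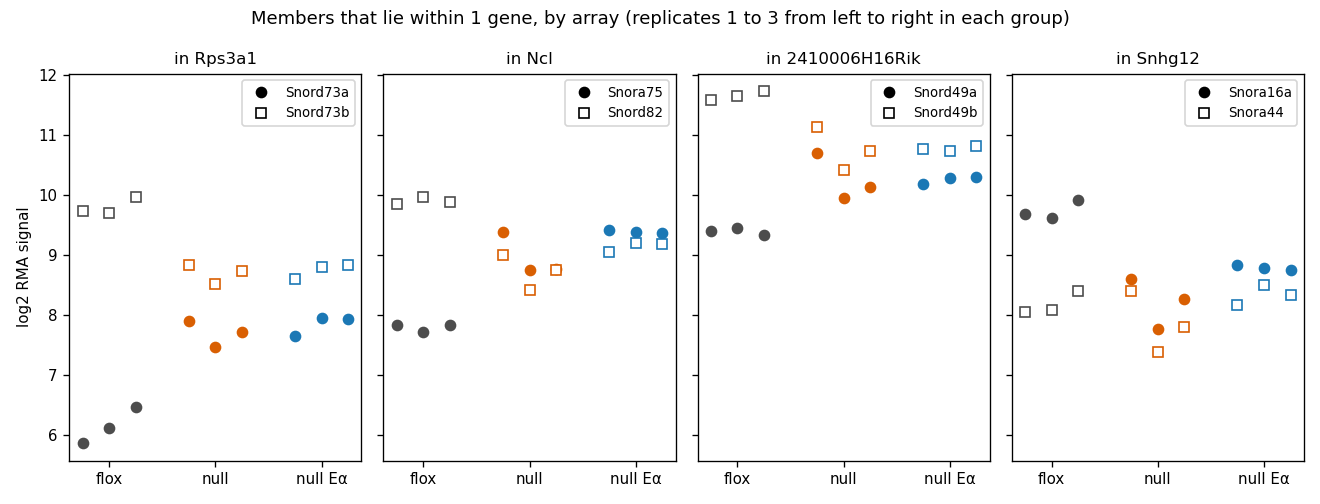
Log2 RMA signal (vertical axis) of both members that lie within 1 gene, on each array by group (horizontal axis), for the pairs in Rps3a1, Ncl, 2410006H16Rik and Snhg12, with filled circles for the first and open squares for the second member. The gap between circle and square differs between flox and the other groups and is alike in null and null Eα, while both members shift together between null replicates 1 and 2. The height of a circle against a square is not a ratio of amounts, since they are different features.

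For 29 of the small RNAs the enclosing gene was itself tested, which gave 25 genes. In null the member and its gene were both called higher in 8 and both lower in 3, and were called in opposite directions in 7. In null Eα these counts were 9, 2 and 5. Without null replicate 1 the null counts were 6, 3 and 8, and without null replicate 2 they were 8, 2 and 7. Among all genes 26.5% were called higher and 28.7% lower in null, and 32.1% and 31.6% in null Eα. Joint calls are therefore frequent for unrelated genes too, and whether these counts differ from that was not tested. Member and gene differed by 1 unit or more in 7 of 29 in either comparison, from -2.38 to 2.93 in null; without null replicate 1 it was 10 of 29 in null. Across the 29 pairs, which share arrays and in 4 cases a gene, Pearson's r was 0.15 (Spearman's rho 0.20) in null and 0.08 (0.16) in null Eα against flox. Between null Eα and null it was 0.60 (0.66), 0.51 without the 2 pairs whose genes lay farthest from the median, and 0.52 to 0.66 with any 1 null array left out. No pair was then apart by 1 unit or more, and the differences there were smaller, with median sizes of 0.36 for members and 0.13 for genes. The median size of a difference from flox in null was 0.65 for the members and 0.34 for their genes.

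Snora41 was the pair farthest apart: its gene Eef1b2 fell by 0.93 ± 0.07 in null and by 0.49 ± 0.07 in null Eα while the snoRNA rose. Snora52 fell by more than 2 units in null while Rplp2 differed by -0.03 ± 0.16, from 7.52 ± 0.40 (SD, n = 3) in flox to 7.49 ± 0.06 in null. Snora31 rose and its gene Tpt1, which encodes the translationally controlled tumour protein, fell by 0.27 ± 0.07. Snord53 fell in null while Wdr43, a ribosome biogenesis factor, rose by 0.58 ± 0.08. Snora23 fell while Ipo7 differed by -0.002. In Rps3a1 the host rose by 1.17 ± 0.12 in null, as did Snord73a but not Snord73b, and in Ncl the host rose by 0.40 ± 0.07. Gas5 rose while Snord47, which lies in it, was not called (0.49 ± 0.20, limma, adjusted p = 0.058).

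**Figure D5:**
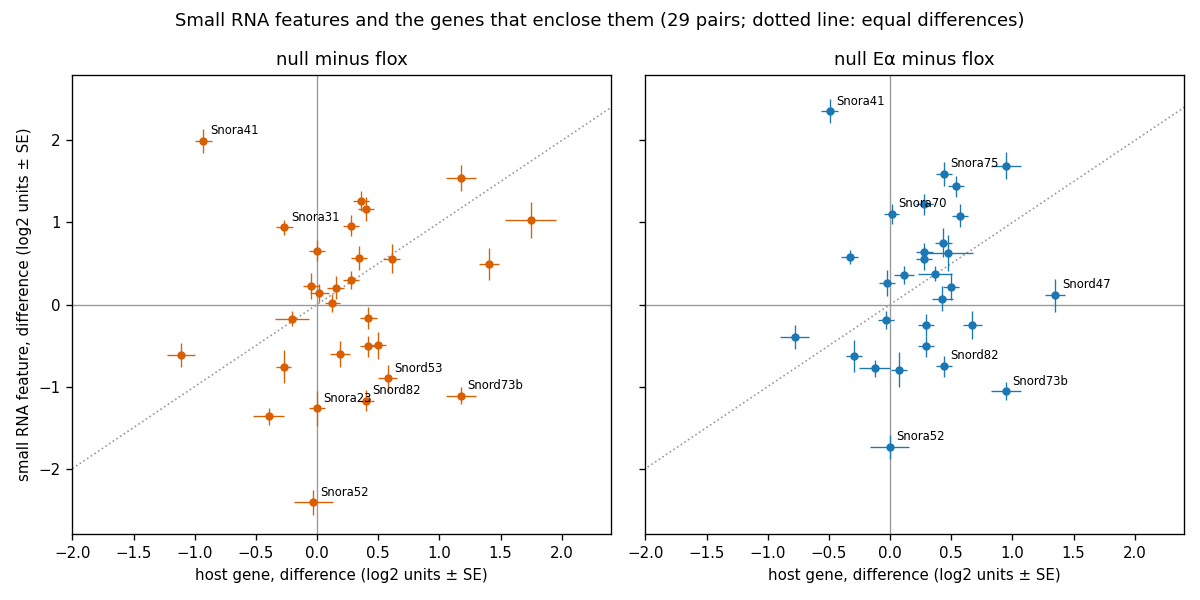
Difference from flox of the small RNA feature (vertical axis) against that of the gene that encloses it (horizontal axis), in log2 units with limma's SE, for 29 pairs in null (left) and null Eα (right), with names where the pair differs by 1 or more and a dotted line at equal differences. Points are scattered with r of 0.15 and 0.08 in these comparisons with flox, and the small RNAs span a wider range than their genes.

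The proteins that carry snoRNAs did not move in a common direction. Of the 4 box C/D core proteins, Nop58 (0.70 in null and 1.01 in null Eα) and the methyltransferase Fbl (0.23 and 0.25) rose in both. Nop56 (-0.40) and Snu13 (-0.28) fell in null, and Snu13 fell in null Eα too (-0.21). Of the 4 box H/ACA proteins, Nhp2 (0.65 and 0.69) and Gar1 (0.55 and 0.24) rose and Nop10 fell (-0.61 and -0.48), while the pseudouridine synthase Dkc1 was not called (-0.14 and 0.21). The 12 assembly factors split into 3 higher and 6 lower in null and 4 and 6 in null Eα. In null they ran from Nufip1 at -1.50 to Znhit3 at 1.35. Among the brighter genes 26.9% were called higher and 43.1% lower in null, and 21.0% and 49.4% in null Eα.

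The 9 genes listed as Cajal body and scaRNA factors fell more often than they rose. Usp1 (-0.64 in null and -0.30 in null Eα) is on that list but is not an established Cajal body protein. It is counted among the 7 that fell in each comparison and in the medians. In null 7 fell and 0 rose, where 28.7% of all genes and 43.1% of the brighter ones were called lower, with a median of -0.57 against 0.06 for all genes and -0.13 for the brighter ones. In null Eα 7 fell and 0 rose, where 31.6% of all genes and 49.4% of the brighter ones were called lower, with a median of -0.59 against 0.07 and -0.25. They included Coil, the marker protein of the Cajal body (-1.39 and -1.70), the elongation factor Ell (-1.83 and -1.80), Gemin2 (-0.71 and -0.59) and Wrap53, which carries scaRNAs to the body (-0.55 and -0.62). The 2 that were not called in limma, Gemin4 and Ice1, stood at 0.14 and 0.11 in null. Coil, Wrap53, Gemin4 and Gemin5 lie on chromosome 11 and Ell on chromosome 8. The brighter genes of chromosome 11 had medians of -0.17 in null and -0.56 in null Eα. Those of chromosome 8 had medians of -0.45 and -0.59. The part of such chromosome-wide shifts in these falls was not tested. The scaRNAs themselves went both ways, as given above.

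Of 15 factors of RNA 3′ end processing and the exosome, 5 rose and 7 fell in null, and 4 rose and 6 fell in null Eα. Of the brighter genes 26.9% were called higher and 43.1% lower in null, and 21.0% and 49.4% in null Eα. The exosome subunit Exosc9 rose by 1.46 and 1.13 and the helicase Mtrex by 0.96 and 0.89. Mphosph6 (-1.70 and -1.69), the exonuclease Exosc10 (-1.24 and -1.01) and Tent4b, a polymerase that tags RNA ends (-1.20 and -1.25), fell. Of the 2 genes of lariat release, Aqr rose in both (0.30 and 0.25) and the debranching enzyme Dbr1 in null Eα (0.58). Of 9 nonsense-mediated decay factors, which act on several non-coding hosts, 1 rose and 4 fell in null and 1 and 5 in null Eα, with Upf2 up (0.61 and 0.74). Between null Eα and null 5 of these 9 fell and 0 rose, Casc3 most (-0.62). In that comparison 18.1% of all genes and 28.9% of the brighter ones were called lower.

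Of 22 genes of RNA polymerase I and ribosomal RNA processing, 8 rose and 11 fell in null and 8 and 9 in null Eα. The medians were -0.21 and -0.16. For this list and the next, the brighter genes were called higher in 26.9% and lower in 43.1% in null. In null Eα these shares were 21.0% and 49.4%, and the brighter genes' medians were -0.13 and -0.25 in null and null Eα. Mphosph10 (1.14 and 1.19) and Utp20 (0.72 and 0.86), both of the small-subunit processing complex, rose, and the polymerase I factor Ubtf (-1.18 and -0.75) and subunit Polr1c (-1.12 and -0.95) fell. Between null Eα and null 8 of the 22 rose and 2 fell, where 16.2% of the brighter genes were called higher and 28.9% lower. Of 36 known host genes outside the Snhg names, 17 rose and 7 fell in null and 17 and 6 in null Eα, with medians of 0.15 and 0.19. The largest rises there in null were those of Meg3 (4.52) and Rian (3.79), non-coding RNAs of an imprinted cluster that holds snoRNAs. In null Eα Meg3 rose by 1.57 and Rian by 0.96, the latter less than Gas5 and Nop58.

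Markers of cell state moved with the groups as well. Of 10 embryonic stem cell markers 8 fell and 2 rose in null. In null Eα 5 fell and 1 rose against flox, with a median of -0.32. Of all genes 26.5% were called higher and 28.7% lower in null, and 32.1% and 31.6% in null Eα. The mean level of the stem cell list was 10.78 to 10.83 on flox, 8.54 to 8.86 on null and 10.57 to 10.74 on null Eα arrays. Of 13 fibroblast markers 11 rose and 0 fell in null and likewise in null Eα, with mean levels of 5.18 to 5.33, 7.66 to 8.34 and 7.11 to 7.37. Their part in the differences given above was not tested. In such bulk samples fewer cells of a type and less RNA per cell cannot be told apart.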

How the data were processed

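The 9 arrays were analysed from the value table of log2 signals that the authors deposited, made with RMA per the submitters' processing notes. Normalization of all 9 arrays in 1 run is not given in the sources used here. Features with 1 gene symbol were kept (21789 of 35556), the feature with the highest mean was taken per gene (999 genes had several), and 19938 genes entered 1 fit (limma 3.58.1, R 4.3.3, lmFit then eBayes, 1 mean per group, 6 residual and 4.04 prior degrees of freedom), with Benjamini-Hochberg adjustment over all genes. Replicates were grouped as the labels give them. Genes were named by rule: every Snhg and Scarna member, the 5 largest rises and falls per comparison among called members whose groups did not overlap, and the pathway lists; all other members were then named to account for each. The members and lists were chosen with earlier results of these data known, and the alternative centring on brighter genes was chosen after seeing the data. Enclosing genes came from the RefSeq gene table (GRCm38.p6), used for names and gene order. Where 2 genes enclosed a small RNA, Snord47 was assigned to Gas5, Snord8 to Chd8 and Snord87 to Snhg6. 1 further pair of members that share a gene is not reported here. Genes that matched no single-symbol feature were not analysed here. The number of arrays limits the precision. The model was tested on simulated data. Tables and plots used Python 3.11.15 with pandas 2.3.3 and matplotlib 3.10.9.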

Additional observations from a re-analysis of the deposited data

How the results depend on the processing

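Under all 18 settings tried, 32 of the 40 members called in null kept a call in the same direction, as did 28 of the 41 called in null Eα (both against flox) and 10 of the 21 called between null Eα and null. Leaving out 1 array at a time gave 14 to 19 rises and 22 to 29 falls in null, 19 to 23 rises and 17 to 20 falls in null Eα, and 11 to 33 rises and 1 to 5 falls between null Eα and null. Centring each chromosome on its brighter genes gave 26 rises in null, 35 rises and 11 falls in null Eα, and 33 rises and 1 fall between null Eα and null. Centring each array on its brighter genes gave 33 rises and 13 falls in null Eα, and 33 rises and 1 fall between null Eα and null. By construction these 2 settings raise the median of all genes. It rose to 0.32 and 0.34 in null, 0.44 and 0.49 in null Eα and 0.16 and 0.19 between null Eα and null. Of the 19938 genes these settings called 11066 and 11855 higher in null, 12466 and 12737 in null Eα, and 5800 and 6401 between them. Fitting only the groups compared gave 11 rises and 1 fall between null Eα and null, where fewer arrays inform the spread, and averaging the features of a gene gave 1 fall. Differences from flox in null Eα that changed sign were Snhg15 (0.14), Snora7a (0.38) and Snord42a (0.32) with chromosomes centred, Snora7a (0.032) and Snora30 (0.021) with arrays centred on brighter genes, and Snhg17 (0.049) with its features averaged. The other settings, median centring, quantile normalization, dim genes left out, a trended robust prior and every feature on its own, kept each count within 1.5 times.

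Deviations of same-numbered arrays correlated at -0.03 to 0.26, above 0 in 8 of 9 cases, and those of arrays with different numbers at -0.20 to 0.14, above 0 in 6 of 18. The medians were 0.09 and -0.07, and 3 of the 9 but 1 of the 18 exceeded 0.1, so same-numbered arrays were somewhat more alike. The labels do not say that the numbers pair the arrays, and the main fit left the numbers out. With the replicate number as a block the counts were 16 and 24 in null, 21 and 20 in null Eα, and 21 and 2 between null Eα and null.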

Other observations

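Other short RNAs outside the name rule gave these values. Rnu3a, the box C/D RNA U3, measured 5.80, 5.35 and 6.28 on the null arrays, and null Eα exceeded null by 0.94 (limma, adjusted p = 0.011). Terc, the telomerase RNA with an H/ACA domain, differed from flox by -4.503 in null and -3.84 in null Eα. The RNase MRP RNA Rmrp differed from flox by -0.36 in null and 0.41 in null Eα. On null replicate 1 only 5 of 14 such RNAs and 126 of 291 microRNA genes lay above their group mean, and 7 of 57 cytosolic ribosomal protein genes did, where 53 of the 54 small RNAs described above did.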
